A study of Mus musculus with 6 samples.

Results

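The nuclear genes for the subunits of respiratory complexes III and IV and of ATP synthase (complex V) were compared between Terf1-deleted and control kidney epithelial cells. The genes were taken by symbol, as every row that begins with Uqcr, with Atp5 or with Cox and a digit of 4 to 8, together with Cyc1 and Cycs and without pseudogene rows. This gave 41 of the 16095 genes in the table, of which 40 passed the filter on low values. Cox6c2 did not pass, with a mean below 10 normalized counts. RNA was sequenced in 6 libraries, 3 labelled Terf1_flox (Trf1lox/lox KFP+/t Cre+/t) and 3 labelled control (Trf1+/+ KFP+/t Cre+/t). Terf1 encodes TRF1, a telomere-binding protein of the shelterin complex. Mice of both groups, males and females aged 6 to 8 weeks at the start, carried the tamoxifen-inducible KspCadherin-CreERT2 transgene, whose promoter is active in tubular epithelium, and received tamoxifen intraperitoneally 3 times a week for 8 weeks. Kidneys were digested and the epithelial cells collected by flow sorting for EpCAM and the KFP reporter. The sources used here do not state how many mice, or of which sex, went into a library. Here n is the number of libraries, and their spread may be partly technical.

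Complex III passes electrons from ubiquinol to cytochrome c, complex IV passes them from cytochrome c to oxygen, and ATP synthase makes ATP from the proton gradient that results. The catalytic subunits of complex IV are encoded in mitochondrial DNA, whereas in complex III cytochrome c1 and the Rieske protein, and in ATP synthase the alpha and beta subunits, are encoded in the nucleus. Around these sit core, stalk and rotor subunits and many small subunits that take no part in catalysis. Tubule cells of the thick ascending limb and distal convoluted tubule are rich in mitochondria.

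The Terf1_flox libraries held 13870931 to 15375471 reads and the control libraries 13582140 to 17680986. Terf1 had 37.3 ± 21.4 normalized counts in Terf1_flox and 560 ± 92.7 in control libraries (SD, n = 3 each), and the groups did not overlap. Its log2 fold change was −3.99 ± 0.61 (SE; limma adjusted p = 0.0814). The sorted epithelial markers Epcam and Cdh16 were present in every library, with a summed level of 6077 to 7041 in Terf1_flox and 9050 to 12239 in control libraries. The 5 thick ascending limb markers summed to 132731 to 140049 in Terf1_flox and 159286 to 203731 in control libraries, and the 4 distal convoluted tubule markers to 70888 to 124268 and 67083 to 133880. Proximal tubule markers summed to 698 to 3499 in Terf1_flox and 546 to 1395 in control libraries, and erythroid markers to 151 to 554 and 190 to 746. The table listed none of 4 endothelial and none of 4 fibroblast and pericyte markers. Transcripts of mitochondrial DNA took 16.2% to 20.6% of reads in Terf1_flox and 10.3% to 13.04% in control libraries. The part of these marker sums and of the mitochondrial read share in the results on the subunit genes was not tested. In such bulk libraries, fewer cells of a type and less RNA per cell cannot be told apart.

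To show the contrast between catalytic and small subunits at the level of sequence, a stretch of the coding sequence that holds an active or cofactor-binding site is given for 3 large or redox-active proteins, and the whole coding sequence for 3 small subunits (GENCODE mouse release 21, build GRCm38, 5′ to 3′). Capitals mark the codons of the phosphate-binding loop in Atp5b, those of the heme attachment motif in Cyc1 and Cycs, and the start codon in the small subunits.
Atp5b, chromosome 10, coding bases 601 to 654 of 1587: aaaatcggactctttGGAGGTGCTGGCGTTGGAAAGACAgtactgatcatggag
Cyc1, chromosome 15, coding bases 346 to 390 of 975: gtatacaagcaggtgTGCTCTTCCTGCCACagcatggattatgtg
Cycs, chromosome 6, coding bases 28 to 72 of 315: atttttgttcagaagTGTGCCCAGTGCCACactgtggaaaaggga
Atp5md, chromosome 19, all 174 coding bases: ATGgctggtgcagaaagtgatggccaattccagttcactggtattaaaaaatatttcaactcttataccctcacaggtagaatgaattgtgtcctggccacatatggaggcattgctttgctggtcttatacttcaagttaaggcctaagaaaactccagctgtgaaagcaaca
Cox7c, chromosome 13, all 189 coding bases: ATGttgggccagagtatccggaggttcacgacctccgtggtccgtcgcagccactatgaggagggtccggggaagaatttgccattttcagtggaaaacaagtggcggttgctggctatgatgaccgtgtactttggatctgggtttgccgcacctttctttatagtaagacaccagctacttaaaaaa
Uqcr11, chromosome 10, all 168 coding bases: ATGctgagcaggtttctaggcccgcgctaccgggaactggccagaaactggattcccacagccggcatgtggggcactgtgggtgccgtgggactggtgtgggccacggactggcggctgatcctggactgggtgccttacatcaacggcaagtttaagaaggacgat

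The 16 accessory subunits of at most 100 residues lay above 0 and the 5 subunits of more than 300 residues below 0 in log2 fold change, Terf1_flox over control, with values on both sides between these sizes, and no gene passed the adjusted threshold in the main test. Of the 40 tested genes, 32 lay above a log2 fold change of 0 and 8 below it, with a median of 0.55, whereas the median over all 14822 tested genes was −0.08. At an unadjusted limma p below 0.05, 22 were higher, against 5.7% of all tested genes, and 6 were lower, against 8.43% of all tested genes. The 3 Terf1_flox libraries all lay above the 3 control libraries for 26 genes, where 10.3% of all tested genes did so, and all below them for 6 genes, where 10.8% did so. After Benjamini-Hochberg adjustment over all tested genes, limma called 0 of the 40, with 0.0% called among all tested genes, and the smallest adjusted p was 0.0742, for Atp5b. DESeq2 on the recovered reads called 16 higher, against 2.21% of all tested genes, and 5 lower, against 3.0%, while edgeR called 0. With limma restricted to the 10762 genes whose mean reached 50, 13 of the subunit genes were called. Of these, Atp5b, Atp5a1, Cyc1, Uqcrc1 and Uqcrc2 were lower, against 0.855% of the 10762 genes. The rest were higher, against 0.372%. With libraries scaled to equal totals, Uqcrb was called higher, against 0.00675% of all tested genes, and Atp5a1 and Atp5b lower, against 0.297%. Quantile normalization left Atp5b as the called subunit gene, on the lower side, against 0.054% of all tested genes.

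**Figure D1:**
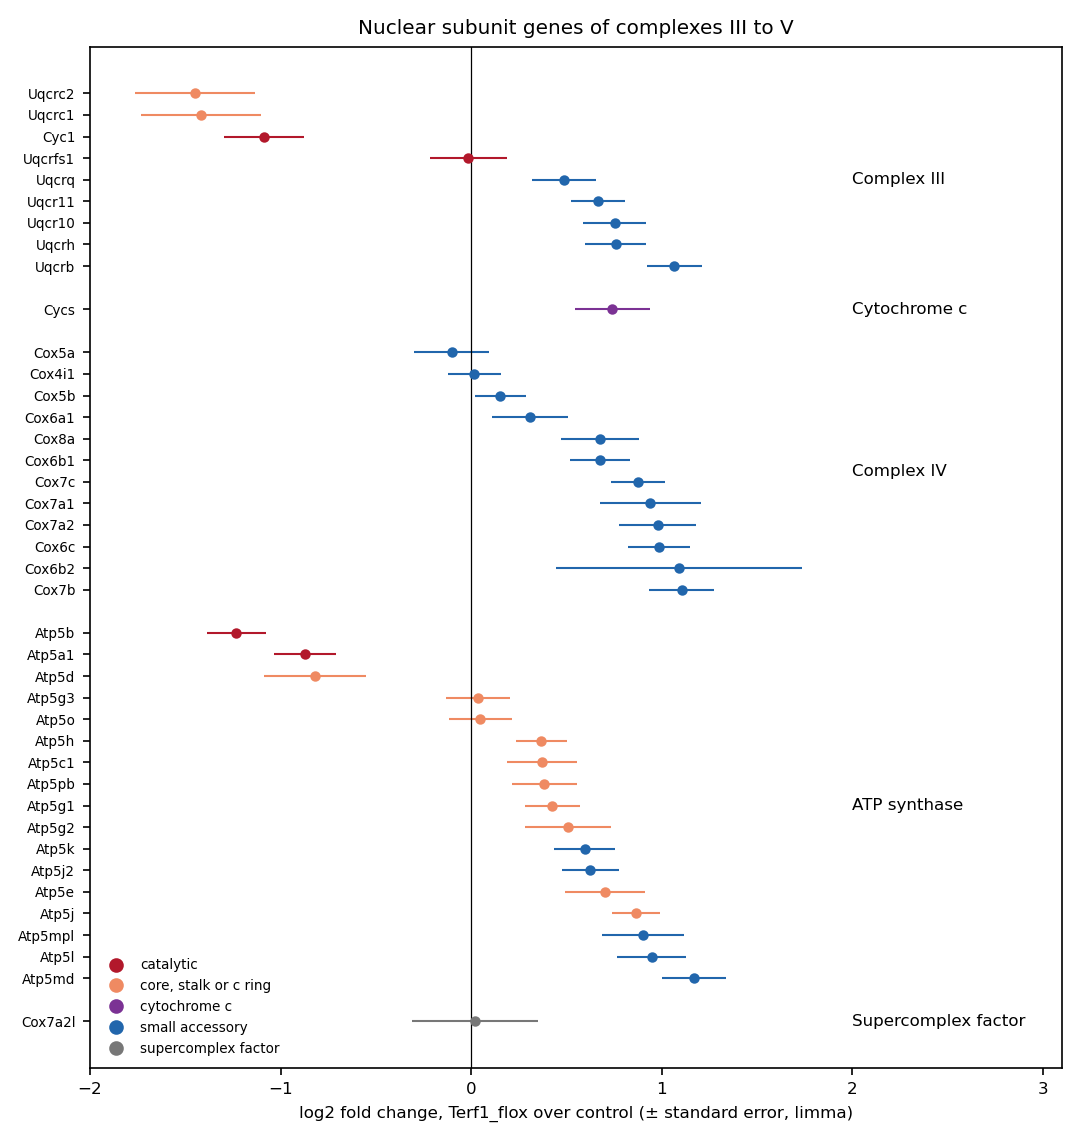
Log2 fold change of each subunit gene, Terf1_flox over control, on the horizontal axis, with genes grouped by complex down the page and coloured by class. Bars are standard errors from the limma fit on 3 libraries a group. The 4 catalytic genes lie at or to the left of 0, core genes lie on both sides (9 of 12 to the right, and Uqcrc2 farthest to the left at −1.45), and 21 of 22 accessory genes lie to the right, up to 1.17.

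The catalytic class, Cyc1, Uqcrfs1, Atp5a1 and Atp5b, had a median log2 fold change of −0.98. At an unadjusted p below 0.05, 3 of 4 genes were lower, against 8.43% of all tested genes. Atp5b encodes the beta subunit of ATP synthase, which carries the catalytic nucleotide sites and the phosphate-binding loop shown above. It had 14341, 13046 and 11175 normalized counts in Terf1_flox libraries, against 27003, 32505 and 30880 in control libraries. Every Terf1_flox library was below every control library, the means were 12854 ± 1592 and 30130 ± 2827 (SD, n = 3 each), and the level was 2.34-fold lower (log2 fold change −1.23 ± 0.15, limma adjusted p = 0.0742, DESeq2 adjusted p = 1.87e-06). Atp5a1, the alpha subunit that alternates with beta in the F1 hexamer, had 10918, 11625 and 9812 normalized counts in Terf1_flox libraries, against 16873, 20975 and 21583 in control libraries. The groups did not overlap and Atp5a1 was 1.84-fold lower (log2 fold change −0.87 ± 0.16, limma adjusted p = 0.0926).

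The catalytic subunits of complex III differed from each other. Cyc1, the heme protein that passes electrons to cytochrome c, had 4051, 4856 and 3369 normalized counts in Terf1_flox libraries, against 7452, 8693 and 9817 in control libraries. All Terf1_flox libraries were lower, and the level was 2.11-fold lower (log2 fold change −1.09 ± 0.21, limma adjusted p = 0.0991). Uqcrfs1, the Rieske iron-sulfur protein, had 13464, 18916 and 14437 normalized counts in Terf1_flox libraries, against 18606, 12530 and 16258 in control libraries. The Uqcrfs1 values overlapped throughout, with −0.01 ± 0.20 as log2 fold change (limma adjusted p = 0.984).

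Uqcrc1 and Uqcrc2, the large core proteins of complex III that face the matrix, had the lowest fold changes of all 40 genes. Uqcrc1 had 4774, 4755 and 6335 normalized counts in Terf1_flox libraries, against 13396, 9084 and 22578 in control libraries. The control libraries were spread widely and all lay above the Terf1_flox libraries, with a 2.84-fold lower mean in Terf1_flox (log2 fold change −1.42 ± 0.31, limma adjusted p = 0.128). Uqcrc2 had 2694, 2136 and 3502 normalized counts in Terf1_flox libraries, against 8520, 4793 and 10072 in control libraries. Again the groups did not overlap, and Uqcrc2 was 2.81-fold lower (log2 fold change −1.45 ± 0.31, limma adjusted p = 0.126). DESeq2 called both, with adjusted p = 0.000285 for Uqcrc1 and 0.000348 for Uqcrc2.

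Cycs, the soluble cytochrome c that carries electrons between complexes III and IV, lay on the other side of 0 from Cyc1. It had 49953, 53533 and 40215 normalized counts in Terf1_flox libraries, against 33873, 21604 and 31529 in control libraries. Every Terf1_flox library was above every control library, and the level was 1.65-fold higher (log2 fold change 0.74 ± 0.20, limma adjusted p = 0.175). Cycs and Cyc1 both hold the heme attachment motif shown above, and they encode 105 and 325 residues.

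All 5 small subunits of complex III were higher, with a median log2 fold change of 0.75. Each was higher at an unadjusted p below 0.05 with no overlap between the groups. Of all tested genes, 5.7% were higher at that p and 10.3% were higher without overlap. Uqcrb, a ubiquinone-binding subunit, had 66315, 63283 and 51752 normalized counts in Terf1_flox libraries, against 32519, 26770 and 27134 in control libraries. Its lowest Terf1_flox library stood well above its highest control library, and it was 2.1-fold higher (log2 fold change 1.07 ± 0.15, limma adjusted p = 0.0805, DESeq2 adjusted p = 2.88e-05). Uqcrh, the acidic hinge protein beside cytochrome c1, had 43818, 45255 and 40905 normalized counts in Terf1_flox libraries, against 30428, 26554 and 20762 in control libraries. The groups stood apart, at 1.67-fold higher (log2 fold change 0.76 ± 0.16, limma adjusted p = 0.121). Uqcr10 had 59592, 51912 and 47122 normalized counts in Terf1_flox libraries, against 38591, 28443 and 27726 in control libraries. Uqcr11 had 47333, 39889 and 39318 normalized counts in Terf1_flox libraries, against 29989, 25180 and 24727 in control libraries. Neither overlapped, and the log2 fold changes were 0.75 ± 0.17 for Uqcr10 and 0.66 ± 0.14 for Uqcr11 (limma adjusted p = 0.126 and 0.121). Uqcrq had the smallest log2 fold change of the 5, at 0.49 ± 0.17 (limma adjusted p = 0.248).

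The nuclear subunits of complex IV, all of them outside its catalytic core, were split by size. Of 12 tested genes 11 lay above 0, with a median log2 fold change of 0.78. At an unadjusted p below 0.05, 7 were higher, against 5.7% of all tested genes. The 8 genes of at most 100 residues had a median of 0.96, with a range of 0.68 to 1.10. The groups did not overlap for any of these 8, where 10.3% of all tested genes were higher without overlap. Cox7b had 75078, 60420 and 53810 normalized counts in Terf1_flox libraries, against 34838, 27629 and 25537 in control libraries. It was 2.15-fold higher, with no overlap (log2 fold change 1.10 ± 0.17, limma adjusted p = 0.0814, DESeq2 adjusted p = 0.000109). Cox6c had 93561, 75224 and 77912 normalized counts in Terf1_flox libraries, against 49742, 41863 and 34026 in control libraries. The groups stood apart, at 1.96-fold higher (log2 fold change 0.98 ± 0.16, limma adjusted p = 0.0814). Cox7c, whose whole coding sequence is printed above, had 58709, 48528 and 48746 normalized counts in Terf1_flox libraries, against 31077, 28924 and 24918 in control libraries. It was 1.84-fold higher, without overlap (log2 fold change 0.88 ± 0.14, limma adjusted p = 0.0814). Cox7a2 had 67166, 51961 and 47193 normalized counts in Terf1_flox libraries, against 34490, 28748 and 21729 in control libraries. It was 1.96-fold higher with no overlap (log2 fold change 0.98 ± 0.20, limma adjusted p = 0.115). Cox6b1 and Cox8a had log2 fold changes of 0.68 ± 0.16 and 0.68 ± 0.20.

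The 4 larger complex IV subunits had log2 fold changes of −0.10 to 0.31, and none reached an unadjusted p below 0.05. Cox4i1, the regulatory subunit that spans the membrane, had a log2 fold change of 0.02 ± 0.14, and Cox5a, which faces the matrix, had one of −0.10 ± 0.20, and the groups overlapped for both. Cox5b, which binds zinc, was at 0.15 ± 0.13 with no overlap, and Cox6a1 at 0.31 ± 0.20 with overlap. When libraries were scaled to equal totals Cox4i1 was at −0.16 and Cox5b at −0.02, and under quantile normalization Cox6a1 was at −0.16. With equal upper quartiles they were at 0.14 for Cox4i1, 0.27 for Cox5b and 0.43 for Cox6a1. After correction for transcript GC content and length Cox4i1 was at 0.29 and Cox5b at 0.12, and Cox6a1 was at 0.44 and passed an unadjusted p below 0.05.

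Where subunits have isoforms, the muscle and heart form Cox7a1 was higher together with the widely expressed Cox7a2. Cox7a1 had 3453, 2598 and 3550 normalized counts in Terf1_flox libraries, against 1966, 1787 and 1282 in control libraries. It was 1.91-fold higher, without overlap (log2 fold change 0.94 ± 0.26, limma adjusted p = 0.191), and its ratio to Cox7a2 was 0.059 ± 0.014 in Terf1_flox and 0.059 ± 0.0026 in control libraries (SD, n = 3 each). The testis form Cox6b2 was low, at 177, 139 and 215 normalized counts in Terf1_flox libraries, against 138, 79.1 and 48.9 in control libraries. The lowest Terf1_flox library was just above the highest control library, with 1.09 ± 0.64 as log2 fold change (limma adjusted p = 0.486). The untested Cox6c2 had 13.1, 10.3 and 10.1 normalized counts in Terf1_flox libraries, against 1.8, 3.8 and 1.6 in control libraries, amounting to 0.011% of Cox6c. Whether reads were split between these near copies was not tested. The table had no row for Cox4i2, Cox6a2 or Cox8b.

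**Figure D2:**
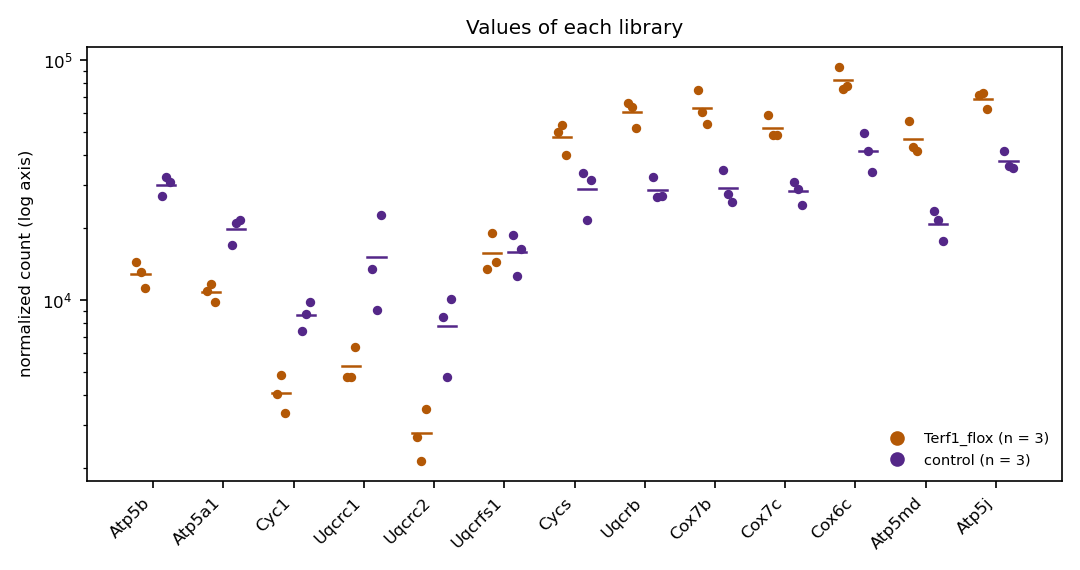
Normalized counts of subunit genes in each library on a log axis, with the 3 Terf1_flox libraries left of the 3 control libraries. Atp5b lies at 11175 to 14341 in Terf1_flox libraries and at 27003 to 32505 in control libraries, and Cox7b at 53810 to 75078 and 25537 to 34838.

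In ATP synthase the 5 small membrane accessory subunits were all higher at an unadjusted p below 0.05 with no overlap. The shares of all tested genes were 5.7% at that p and 10.3% without overlap. The median log2 fold change of these 5 subunits was 0.90. Atp5md, a subunit of 58 residues that takes part in holding ATP synthase dimers together, had 55338, 43483 and 41601 normalized counts in Terf1_flox libraries, against 23382, 21410 and 17524 in control libraries. It was 2.25-fold higher, and its log2 fold change of 1.17 ± 0.17 was the highest of the 40 genes (limma adjusted p = 0.0805, DESeq2 adjusted p = 1.81e-05). Atp5l, the g subunit, had 37567, 31810 and 28344 normalized counts in Terf1_flox libraries, against 20366, 16897 and 13757 in control libraries. The groups stood apart, at 1.92-fold higher (log2 fold change 0.95 ± 0.18, limma adjusted p = 0.0991). Atp5mpl had 40660, 28926 and 26438 normalized counts in Terf1_flox libraries, against 19813, 18173 and 13259 in control libraries. Atp5j2, the f subunit, had 35109, 30870 and 27291 normalized counts in Terf1_flox libraries, against 22012, 20023 and 18275 in control libraries. Neither gene overlapped between the groups, with log2 fold changes of 0.90 ± 0.21 and 0.63 ± 0.15 (both limma adjusted p = 0.142). Atp5k, the e subunit, had one of 0.60 ± 0.16 (limma adjusted p = 0.181).

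The stalk and rotor subunits of ATP synthase lay on both sides of 0. In the central stalk, Atp5d, the delta subunit, had 2594, 3597 and 3556 normalized counts in Terf1_flox libraries, against 4906, 8027 and 4637 in control libraries. Atp5e, the epsilon subunit of 52 residues, had 38560, 29320 and 24363 normalized counts in Terf1_flox libraries, against 18246, 22741 and 15437 in control libraries. Both were free of overlap but lay on opposite sides of 0, with log2 fold changes of −0.82 ± 0.27 for Atp5d and 0.70 ± 0.21 for Atp5e (limma adjusted p = 0.234 and 0.204). Atp5c1, the gamma subunit that forms the rotating shaft, had 23597, 37248 and 32111 normalized counts in Terf1_flox libraries, against 24738, 21063 and 24986 in control libraries. The first Terf1_flox library lay within the control range, and the log2 fold change was 0.37 ± 0.19 (limma adjusted p = 0.408).

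In the peripheral stalk, Atp5j (coupling factor 6) had 71398, 72942 and 62327 normalized counts in Terf1_flox libraries, against 41840, 36137 and 35419 in control libraries. It was 1.82-fold higher with no overlap (log2 fold change 0.87 ± 0.13, limma adjusted p = 0.0805). Atp5h, the d subunit, had 29860, 36674 and 31069 normalized counts in Terf1_flox libraries, against 25960, 25108 and 24288 in control libraries. Atp5pb, the b subunit, had 20969, 28742 and 22910 normalized counts in Terf1_flox libraries, against 19015, 16047 and 20337 in control libraries. Both were free of overlap, with smaller log2 fold changes of 0.37 ± 0.13 and 0.38 ± 0.17 (limma adjusted p = 0.273 and 0.355). Atp5o, the oligomycin sensitivity protein, had 28895, 39326 and 28647 normalized counts in Terf1_flox libraries, against 33122, 27290 and 32579 in control libraries. Its values overlapped (log2 fold change 0.05 ± 0.17).

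The c ring is built from 1 mature protein encoded by Atp5g1, Atp5g2 and Atp5g3. Atp5g1 had 49939, 50730 and 42896 normalized counts in Terf1_flox libraries, against 41707, 33176 and 32446 in control libraries. Atp5g2 had 2850, 2915 and 2978 normalized counts in Terf1_flox libraries, against 2320, 2171 and 1705 in control libraries. Atp5g3 had 21619, 29378 and 22217 normalized counts in Terf1_flox libraries, against 24151, 25755 and 21047 in control libraries. Atp5g1 and Atp5g2 stood apart between the groups, with log2 fold changes of 0.43 ± 0.14 and 0.51 ± 0.23 (limma adjusted p = 0.248 and 0.358), whereas Atp5g3 overlapped at 0.04 ± 0.17. Under quantile normalization Atp5g1 was at −0.04. Cox7a2l, which joins complexes III and IV into supercomplexes, had 2826, 4357 and 5003 normalized counts in Terf1_flox libraries, against 2943, 3331 and 6029 in control libraries. It overlapped, at 0.02 ± 0.33.

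The comparison of catalytic with small accessory subunits was made within each library, as the median deviation of a class from the mean of each gene over all 6 libraries. The catalytic class was at −0.43, −0.30 and −0.69 on the log2 scale in Terf1_flox libraries, against 0.30, 0.54 and 0.61 in control libraries. The accessory class was at 0.56, 0.34 and 0.28 in Terf1_flox libraries, against −0.17, −0.35 and −0.63 in control libraries. The classes lay on opposite sides of 0 in each of the 6 libraries, where the deviations of a gene sum to 0 over the libraries, and the accessory minus catalytic value was 0.87 ± 0.20 in Terf1_flox and −0.87 ± 0.39 in control libraries (SD, n = 3 each). The core class differed less, at −0.06, 0.30 and 0.05 in Terf1_flox libraries, against −0.03, −0.18 and −0.14 in control libraries. Over genes, the median log2 fold change was 0.76 for the 22 accessory subunits and 0.37 for the 12 core subunits. At an unadjusted p below 0.05, 17 accessory subunits were higher and 0 lower, and 4 core subunits were higher and 3 lower. Of all tested genes 5.7% were higher and 8.43% lower. Of the 296 tested genes with a residue count of at most 100, 32.8% were higher and 3.72% lower. The difference between accessory and catalytic medians was 1.74. The catalytic genes encode 274 to 553 residues and the accessory genes 56 to 169, so role and protein size cannot be told apart in this difference. With the 12 core subunits joined to the catalytic class, the median of that class was 0.04 and the difference 0.71.

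**Figure D3:**
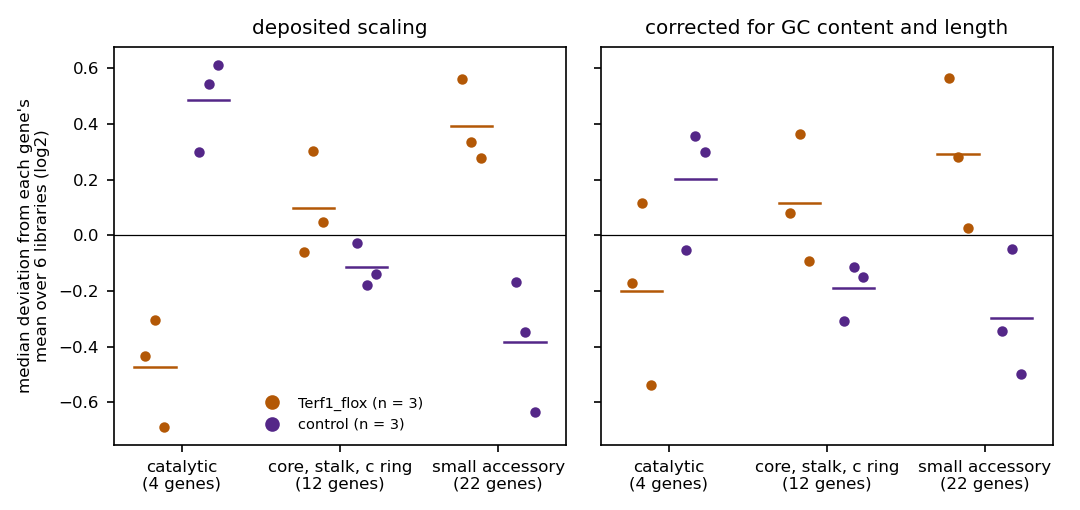
Median deviation of each class from its genes' means, on the log2 scale, in each of the 6 libraries, with Terf1_flox libraries left of control libraries. The accessory class is at 0.28 to 0.56 in Terf1_flox and −0.63 to −0.17 in control libraries, and the catalytic class at −0.69 to −0.30 and 0.30 to 0.61.

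Fold changes were lower for the longer encoded proteins. The 5 genes of more than 300 residues (Uqcrc1, Uqcrc2, Cyc1, Atp5a1 and Atp5b) were all lower, with log2 fold changes of −1.45 to −0.87, and the 16 accessory genes of at most 100 residues were all higher, with 0.49 to 1.17. The 6 larger accessory genes had a median of 0.23. Spearman's rho between residues and log2 fold change was −0.79 over the 40 genes, −0.70 over the 9 of complex III, −0.60 over the 12 of complex IV and −0.84 over the 17 of ATP synthase. Protein size was not the only property that ran with the fold change. For transcript length rho was −0.64 over the 40 genes and −0.87 in complex III, where it was 0.90 for the control mean. Over the 22 accessory genes alone it was −0.38 for residues and −0.50 for transcript GC content. These correlations run across genes that share the same 6 libraries and are descriptive.

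Other genes of the same sizes differed in part from the subunit genes. Tested genes without a residue count were left out of this comparison. Among the 279 other genes of at most 100 residues the median log2 fold change was 0.52, and for the 17 subunit genes of that size it was 0.76. The quartiles of those other genes were 0.03 and 0.88, so the subunit median lay between them. Of all 296 genes of that size, 77.4% lay above 0 and 32.8% were higher at an unadjusted p below 0.05. For more than 100 and up to 200 residues the median was 0.34 for the 14 subunit genes and 0.08 for the 1340 other genes. For more than 200 and up to 300 residues the signs differed, with 0.21 for the 4 subunit genes and −0.28 for the 1671 other genes. For more than 300 and up to 500 residues the median was −1.42 for the 3 subunit genes and −0.35 for the 3370 other genes. Above 500 residues it was −1.05 for Atp5a1 and Atp5b and −0.09 for the 5255 other genes. In each bin up to 300 residues the subunit median lay between the quartiles of the other genes. In the bins above 300 residues it lay below their lower quartiles, which were −1.18 and −0.84.

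**Figure D4:**
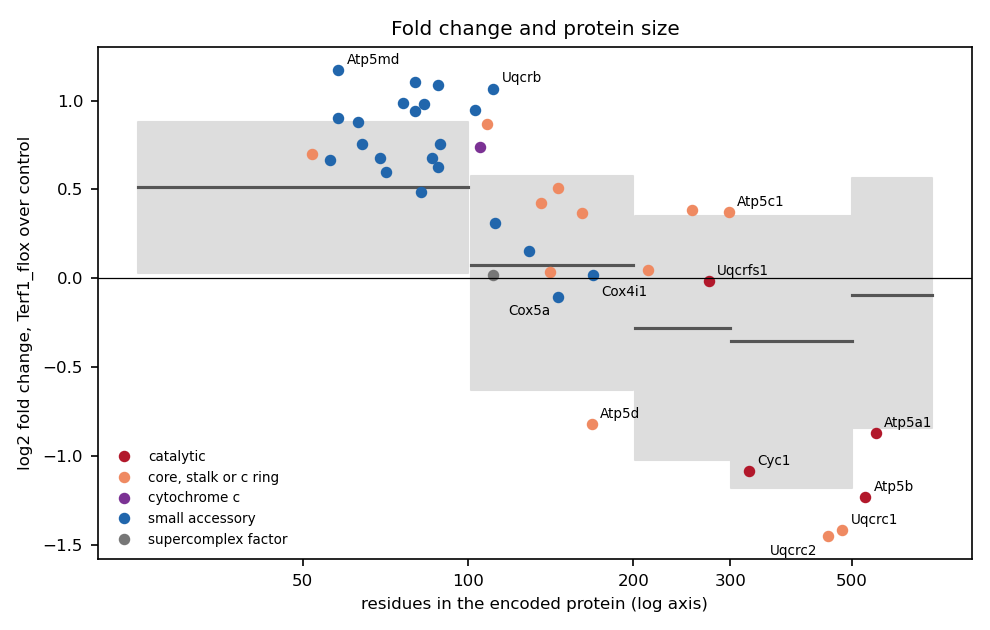
Log2 fold change, Terf1_flox over control, against the number of residues in the encoded protein on a log axis. Points are subunit genes coloured by class. Grey boxes with a line give the quartiles and median of the other tested genes with a residue count of that size. Subunits of more than 300 residues lie at −1.45 to −0.87, below the medians of other genes of their size at −0.35 and −0.09. Subunits of at most 100 residues have a median of 0.76, between the quartiles of other genes of their size at 0.03 and 0.88.

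Transcript composition moved with the fold changes over all genes. With all genes in 5 equal bins from the lowest to the highest GC content, the median log2 fold change was 0.36, 0.06, −0.11, −0.33 and −0.48, and from the shortest to the longest of 5 bins by length it was 0.26, −0.40, −0.25, −0.13 and 0.07. After the log2 values of each library were corrected for transcript GC content and length, the subunit genes had a median of 0.49, with 21 higher, against 6.36% of genes in that fit, and 3 lower, against 5.15%, at an unadjusted p below 0.05. The accessory median became 0.59 and the catalytic median −0.42, a difference of 1.01. In single libraries the corrected accessory minus catalytic value was 0.74, 0.17 and 0.56 in Terf1_flox libraries, against −0.29, −0.41 and −0.80 in control libraries. The groups stayed apart, whereas for the catalytic class alone they overlapped, at −0.17, 0.12 and −0.54 in Terf1_flox and −0.05, 0.36 and 0.30 in control libraries.

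Single genes responded unevenly to the correction. Uqcrc2, with a transcript GC content of 44.4%, was at −1.35, close to its uncorrected value, whereas Uqcrc1 at 57.5% GC became −0.75, Cyc1 at 55.7% became −0.49 and Atp5b at 51.6% became −0.71. Atp5a1 became −0.35 and Atp5d −0.33. Of the catalytic genes Atp5b alone stayed below an unadjusted p of 0.05 after the correction, and Cyc1, Atp5a1 and the core gene Atp5d did not. Atp5md and Uqcrb, with GC contents of 44.2% and 42.2%, both came to 0.41. Neither stayed below an unadjusted limma p of 0.05 (0.077 and 0.0504). Of the 22 accessory genes 15 were higher at that p after the correction, against 6.36% of genes in that fit. Uqcr11, whose transcript is 58.9% GC and whose coding sequence is printed above, stayed at 0.66. After correction rho between residues and log2 fold change was −0.62 over the 40 genes, −0.92 in complex III, −0.53 in complex IV and −0.46 in ATP synthase.

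**Figure D5:**
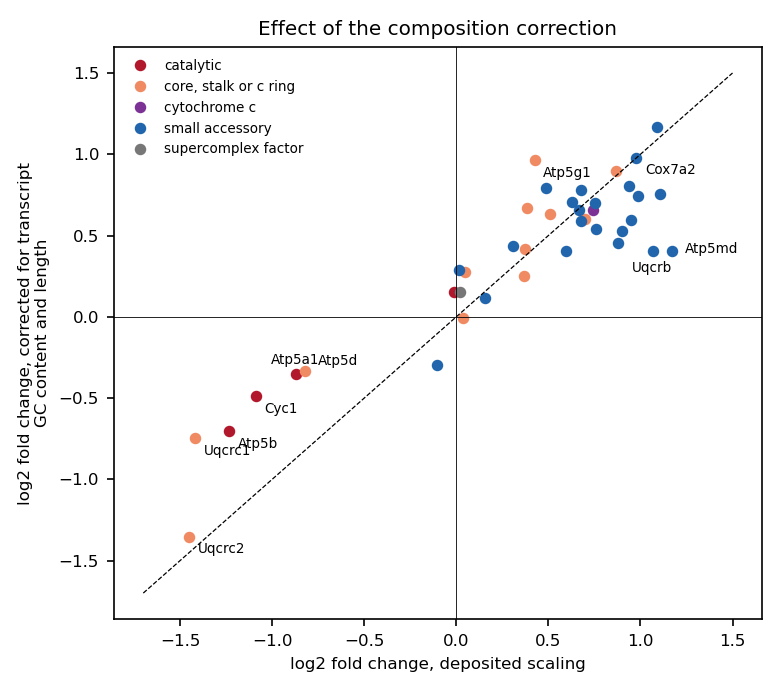
Log2 fold change of each subunit gene after correction for transcript GC content and length (vertical axis) against the value with the deposited scaling (horizontal axis), both Terf1_flox over control; the dashed line marks equal values. Uqcrc2 stays near the line at −1.35, and Atp5md and Uqcrb, at 1.17 and 1.07 before the correction, both lie at 0.41.

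The 41 genes together took 9.26%, 8.30% and 7.57% of reads in Terf1_flox libraries, against 6.92%, 6.85% and 5.89% in control libraries. The accessory subunits took 6.65%, 5.49% and 5.198% in Terf1_flox libraries, against 4.34%, 4.29% and 3.30% in control libraries. The catalytic subunits took 0.283%, 0.307% and 0.251% in Terf1_flox libraries, against 0.495%, 0.577% and 0.563% in control libraries. Both shares were separate between the groups, in opposite directions. Per kilobase of transcript, Cox6c averaged 135697 normalized counts in Terf1_flox and 69105 in control libraries, while Cyc1 averaged 2692 and 5693.

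Among genes of the same pathway, assembly factors lay on both sides of 0. Of 6 tested complex III assembly factors, Uqcc2 was higher (log2 fold change 0.64 ± 0.19) and Uqcc1 lower (−1.05 ± 0.31) at an unadjusted p below 0.05. The shares of all tested genes were 5.7% higher and 8.43% lower. Of 23 tested complex IV factors, 5 were higher and 4 lower by the same rule, where 5.7% and 8.43% of all tested genes were, with a median of −0.16. The groups overlapped for 2 of the 4 lower ones, Cox18 and Oxa1l, and did not for Cox10, which makes heme O, the precursor of the heme A of the catalytic core. Cox10 was at −2.24 ± 0.50 and the copper chaperone Cox17 at 0.68 ± 0.20. Cox10 had 109, 183 and 93.1 normalized counts in Terf1_flox libraries, against 542, 430 and 852 in control libraries. Of 5 ATP synthase factors, Fmc1 was higher (0.58 ± 0.14) and Atpaf2 lower (−1.49 ± 0.62) by the same rule and against the same shares. After correction for GC content and length, Uqcc1 was at −0.47 and Atpaf2 at −0.93, and neither reached an unadjusted p below 0.05. Uqcc2 at 0.70 and Fmc1 at 0.57 still did. None of 11 regulators of respiratory genes reached an unadjusted p below 0.05 in limma or an adjusted p below 0.05 in DESeq2, and the coactivator Ppargc1a was at 0.40 ± 0.19. Higher without overlap were 2 of the 11, Ppargc1a and Esrra, against 10.3% of all tested genes. In the fit corrected for GC content and length, 2 of the 11 were higher at an unadjusted p below 0.05, against 6.36% of genes in that fit. These were Esrra at 1.51 and Pprc1 at 3.03, and Ppargc1a was at 0.012. Pprc1 was low and its groups overlapped, at 31.5, 136 and 62.7 normalized counts in Terf1_flox libraries, against 44.9, 5.7 and 3.2 in control libraries. All 6 mitochondrially encoded subunits of complexes III to V lay above 0, with a median log2 fold change of 0.93, while in the fit corrected for transcript composition it was 0.25 and 2 of them lay below 0. No gene of these lists passed the adjusted threshold in limma.

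Promoters were searched for the motif of NRF1, a transcription factor known to act on respiratory genes, as a description of what the subunit genes share. RefSeq promoters (build GRCm38.p6, 250 bases before to 50 after the start) were matched for 32 of the 41 genes. The letters GCGCA, any base and then GCGC, searched on both strands, occurred in 8 of them and in 1402 of all 27025 genes (5.19%). They were held by 6 of 11 core genes, 2 of 17 accessory genes and 0 of 2 catalytic genes. The ETS letters ACTTCCGG occurred in 4 of the 32 (12.5%) and in 4.31% of all genes. A stretch of 30 bases around the motif, in capitals, is given for a core, a membrane accessory and a complex IV gene, all on the minus strand. The motif begins 42 bases before the start in Atp5g2, 50 in Atp5k and 162 in Cox6a1. Cox6a1 also holds these letters at 117 bases before the start, which is not printed.
Atp5g2, chr15:102671070-102671099: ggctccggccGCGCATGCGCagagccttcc
Atp5k, chr5:108434430-108434459: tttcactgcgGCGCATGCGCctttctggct
Cox6a1, chr5:115349101-115349130: caggaacgggGCGCATGCGCgctctcgctc
The log2 fold changes of these 3 genes were 0.51, 0.60 and 0.31.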

How the data were processed

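The authors deposited 1 table of normalized counts (a signal, reads divided by a factor per library) with 16095 gene symbols. Per the submitters' processing notes, DESeq2 and the build GRCm39 were used; the sources used here name no aligner, counter or gene filter. Dividing each deposited column by its smallest step gave whole reads for all values, within 0.01 of a read. Values were not divided by gene length unless stated. Members, lists and tests were chosen with earlier results of these data known, so counts and medians over genes carry no p. Every member could be named.

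Terf1_flox was compared with control in limma 3.58.1 under R 4.3.3, with a trended empirical Bayes fit and two-sided p, on log2(normalized count + 1). Genes averaging 10 or more were tested (14822), p-values were Benjamini-Hochberg adjusted over all of them, and a call needed an adjusted p below 0.05. Fold changes are ratios of mean normalized counts; log2 fold changes are given ± SE. edgeR 4.0.16 (quasi-likelihood) and DESeq2 1.42.0 (Wald) used the recovered reads. GC content, length and residues came from the principal transcript in GENCODE mouse release 21. GC content and length were available for 14647 of the 14822 tested genes. Residues were available for fewer, with 296, 1354, 1675, 3373 and 5257 genes in the size bins from shortest to longest. Tested genes without a residue count are absent from the comparisons by protein size. The correction fitted natural splines (4 degrees of freedom) of GC content and log2 length in each library. Classes were set by known role. Depth limits the precision of low counts. Further alternatives varied the pseudocount (0.5 or 5), the filter (none, or 50), the scaling, the replicate block and the libraries, leaving out each. The limma fit alone was also run on simulated counts, with planted effects larger than those of the subunit genes. No GC content or length trend was planted, so that run does not test the subunit results. Figures were drawn with matplotlib 3.10.9.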

Additional observations from a re-analysis of the deposited data

How the results depend on the processing

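Leaving out each library in turn gave an accessory median log2 fold change of 0.64 to 0.89, a catalytic median of −1.09 to −0.88, a difference of 1.54 to 1.98, 20 to 22 genes higher and 5 to 6 lower at an unadjusted p below 0.05, and 0 called. The count called was 13 where the mean had to reach 50, against 0.372% of all genes in that fit higher and 0.855% lower. It was 3 with equal library totals, against 0.00675% higher and 0.297% lower, and 1 with quantile normalization, against 0.0% and 0.054%. DESeq2 called 21, against 2.21% and 3.0%. Quantile normalization gave an accessory median of 0.39 and 13 genes higher at an unadjusted p below 0.05. Shares of all tested genes at that p were not computed for quantile normalization, left-out libraries or the replicate block. Those counts therefore have no background beside them. The GC content and length correction, with or without the replicate block, gave a catalytic median of −0.42, a difference of 1.01 and 3 genes lower. Without the block, 5.15% of genes in that fit were lower. With core, stalk and c ring subunits joined to it the catalytic median was 0.042 and the difference 0.71; within complex III they were −0.55 and 1.30. The median of all genes was −0.24 with equal totals and 0.06 with quantile normalization, against −0.08 as deposited. Terf1 passed the adjusted threshold at −3.99 (mean of at least 50), −4.17 (equal totals) and −3.89 (DESeq2).

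Genes near 0 changed sign. With equal totals these were Atp5g3 (−0.14), Atp5o (−0.13), Cox4i1 (−0.16), Cox5b (−0.021) and Cox7a2l (−0.16). With quantile normalization they were Atp5g1 (−0.042), Atp5g3 (−0.24), Atp5o (−0.33), Cox4i1 (−0.39), Cox5b (−0.15), Cox6a1 (−0.16) and Cox7a2l (−0.043). With equal upper quartiles they were Cox5a (0.018) and Uqcrfs1 (0.11). With the GC content and length correction, and with the replicate block beside it, they were Atp5g3 (−0.0080) and Uqcrfs1 (0.15). Uqcrfs1 was at 0.0050 with edgeR and 0.0011 with DESeq2. Leaving out single libraries gave −0.10 to 0.12 for Atp5g3, −0.10 to 0.13 for Atp5o, −0.084 to 0.10 for Cox4i1, −0.30 to 0.048 for Cox5a, −0.18 to 0.33 for Cox7a2l and −0.17 to 0.11 for Uqcrfs1. The cause was not tested. Of 720 gene and setting pairs, 646 kept direction and call, 38 became called and 36 changed sign.

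Replicate numbers did not pair the libraries: the deviations of same-numbered libraries correlated at −0.049, 0.00013 and −0.0069. The replicate block left 22 genes higher, 6 lower and 0 called.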

Other observations

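Ratios of genes within a library do not depend on the scaling between libraries. The pairs were chosen after their values were seen, from genes already known to differ in opposite directions, so their separation between the groups is a description and adds no support. The ratio of Atp5md to Atp5b reads was 3.86, 3.33 and 3.72 in Terf1_flox libraries, against 0.866, 0.659 and 0.567 in control libraries, a 5.22-fold difference of means. The ratio of Uqcrb to Uqcrc1 was 13.9, 13.3 and 8.17 in Terf1_flox libraries, against 2.43, 2.95 and 1.202 in control libraries. The ratio of Cycs to Cyc1 was 12.3, 11.02 and 11.9 in Terf1_flox libraries, against 4.55, 2.49 and 3.21 in control libraries. The ratio of Uqcrc1 to Uqcrc2, both large core proteins, overlapped at 1.77, 2.23 and 1.81 in Terf1_flox libraries and 1.57, 1.90 and 2.24 in control libraries.

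Rows of processed copies were low beside their parent genes. Cox7c-ps1 reached 0.681% of Cox7c, with 344 ± 32.9 normalized counts in Terf1_flox and 203 ± 53.5 in control libraries (SD, n = 3 each), and Cox5b-ps reached 0.119% of Cox5b.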
